A study of Mus musculus with 6 samples.

Results

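The DNAJ genes encode the J domain proteins that partner the HSP70 chaperones, and 43 of the 24421 gene symbols in the deposited heart table carry such a name: 4 of class A (Dnaja), 13 of class B (Dnajb) and 26 of class C (Dnajc). They were taken by symbol alone, as Dnaj followed by a, b or c and a number. No measured value is part of that rule, but earlier results of these data were known when it was set. All 43 symbols matched 1 gene each in the GENCODE vM21 annotation of mm10 (GRCm38). Their transcripts were followed through RNA immunoprecipitation (RIP), in which an antibody pulls a protein out of a lysate and the RNA that comes with it is sequenced. The lysates were made from hearts of C57BL6/J mice of 4 weeks, and no genotype other than this strain and no treatment is given for any group. The 6 libraries were of 3 kinds with 2 of each, namely Cnot3 RIP (an antibody against Cnot3, part of the CCR4-NOT deadenylase that trims poly(A) tails), control IgG RIP (a control antibody) and Input (lysate RNA without immunoprecipitation). The labels call these 2 experiments and do not say whether different hearts were used, so every p-value here describes the spread between libraries, which may be technical.

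HSP70 chaperones hold and release unfolded protein chains in a cycle driven by ATP, and a J domain protein brings the client and triggers the ATP hydrolysis that closes HSP70 on it. The trigger is a His-Pro-Asp motif in the J domain. Class A proteins resemble bacterial DnaJ, with a glycine/phenylalanine-rich stretch and a cysteine-rich zinc-binding region, class B proteins lack the zinc-binding region, and class C proteins share only the J domain and differ widely in the rest. In heart muscle, where sarcomere proteins are under constant mechanical load, HSP70 and its partners are known for protein quality control.

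The motif that defines the family was read from the annotated coding sequences. An in-frame run of codons for His-Pro-Asp was found in 42 of 43 genes, and Dnajb13 was the gene in which it was not found. It began at codon 34 to 121 in class A, 31 to 139 in class B and 31 to 1337 in class C, and it lay within the first 100 codons in 3 of 4 class A, 10 of 12 class B and 16 of 26 class C genes that hold it. At least 2 cysteine repeats of the zinc-binding kind were found in 4 of 4 class A genes and in 0 of 13 class B and 0 of 26 class C genes, as the class definitions say. The motif is shown for 5 members on which the values below turn: the class A gene with the highest level per kilobase, the class B pair with the largest Cnot3 RIP to control IgG RIP difference, the member called against Input, and the class C gene with the highest level per kilobase. Each line gives 39 coding bases from GENCODE vM21, 5′ to 3′ on the gene's strand, with the His-Pro-Asp codons in capitals.
Dnaja2, chr8:85553926-85553964, minus strand: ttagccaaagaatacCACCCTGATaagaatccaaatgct
Dnajb1, chr8:83608410-83608448, plus strand: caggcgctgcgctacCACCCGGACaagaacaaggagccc
Dnajb5, chr4:42953253-42953291, plus strand: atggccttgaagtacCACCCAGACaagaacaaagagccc
Dnajc2, chr5:21776769-21776807, minus strand: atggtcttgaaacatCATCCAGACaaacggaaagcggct
Dnajc3, chr14:118976750-118976788, plus strand: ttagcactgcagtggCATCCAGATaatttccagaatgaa
Each of these windows lies within 1 coding exon.

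Levels below are scaled CPM, the deposited CPM (reads of a gene scaled to a common library total) after TMM factors brought the 6 libraries to a common scale. The libraries held 19176056 and 25567544 reads in Cnot3 RIP against 18032715 and 17283203 in control IgG RIP, with 15713318 and 33479580 in Input. Rn45s, the ribosomal RNA precursor, took 53.1% and 51.1%, 60.2% and 59.4%, and 78.3% and 79.2% of them in the same order. All 6 cardiomyocyte markers examined (Myh6, Tnnt2, Tnni3, Actc1, Myl2 and Ryr2) had at least 10 reads in every library, and their summed level was 22255 and 22993 scaled CPM in Cnot3 RIP against 33163 and 17543 in control IgG RIP, with 16113 and 19414 in Input. Marker RNA of other cell types differed between the 2 libraries of each kind of RIP. All 4 endothelial markers were detected, with sums of 355 and 196 in Cnot3 RIP against 205 and 334 in control IgG RIP, with 256 and 206 in Input, and fibroblast markers (4 of 4 detected) summed to 473 and 261, 309 and 442, and 397 and 353. Smooth muscle and pericyte markers (4 of 4) gave 294 and 155, 163 and 299, and 258 and 187. Cnot3 RIP replicate 2, control IgG RIP replicate 1 and, by less, Input replicate 2 were thus the low libraries of their groups in these 3 lists. Leukocyte markers (4 of 4) gave 56.9 and 40.6, 52.7 and 61.9, and 54.95 and 65.2, the other way in Input. Erythroid markers (1 of 3) gave 13.7 and 6.09, 11.9 and 13.6, and 12.8 and 6.23. Skeletal muscle markers (1 of 3) gave 31.8 and 31.3, 34.8 and 29.4, and 60.5 and 68.7, the other way in control IgG RIP and Input. Because the samples are bulk lysates, fewer cells of a type and less RNA per cell cannot be told apart.

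DNAJ transcripts were a small part of each library. Without Rn45s, the 43 genes took 0.154% and 0.184% of the reads in Cnot3 RIP, against 0.137% and 0.143% in control IgG RIP, with 0.177% and 0.187% in Input. In scaled CPM their sums were 494 and 689, 566 and 454, and 556 and 628 in the same order. On that scale the 2 kinds of RIP overlapped. A limma fit across all genes with enough reads kept 37 of them: 4 of class A, 9 of class B and 24 of class C. The 6 others had few reads over the 6 libraries together: 23 for Dnajb7, 18 for Dnajb13 (a protein of motile cilia and sperm tails), 14 for Dnajc6 (auxilin, the neuronal uncoating factor of clathrin vesicles), 9 for Dnajb3 and 3 for Dnajc22. Dnajb8, a testis gene, had 0 reads, and a count of 0 allows up to 3 reads, or 0.0899 to 0.277 scaled CPM depending on the library, for counting error only. Those 6 genes were not tested and are not part of the counts below.

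Per kilobase of annotated exon, with all transcripts of a gene merged, 3 of the 4 class A genes had the highest levels of the family. That order rests on the merged length. The single transcript read for the motif has 2919 bases in Dnaja2 (2975 merged) but 1497 in Dnajb4 (8765 merged). In Dnajb5 it has 3291 bases (5936 merged) and in Dnaja1 3376 (8629 merged). The order by single transcripts was not examined and could differ. Dnaja2, a cytosolic HSP70 partner (chromosome 8, 85537633 to 85555344, minus strand), averaged 21.0 scaled CPM per kilobase over the 6 libraries. Dnaja3, which works in the mitochondrial matrix, averaged 10.5, and Dnaja4, another cytosolic partner, averaged 8.02, although 44.1% of the exon bases of Dnaja4 overlap Wdr61 on the other strand. In class B the leaders per kilobase were Dnajb5 at 7.10, Dnajb4 at 4.49 and Dnajb2, a J protein with ubiquitin-interacting motifs, at 4.16. Class C was led by Dnajc3, an HSP70 partner in the endoplasmic reticulum lumen, at 5.34 per kilobase. Dnajc5 (cysteine string protein, on secretory vesicles) followed at 5.25 and Dnajc7, which also binds HSP90, at 4.39. Dnaja1 (0.507 per kilobase) and Dnajb6 (0.362 per kilobase) were low in this family by merged length, and both have near-identical copies in the genome. At 95% identity or more over at least 300 bases, 3 processed pseudogenes match Dnaja1, 5 match Dnajb6 and 1 matches Dnajc17. How the counting treated reads shared with these copies is not given in the sources used here, so the levels and differences of those 3 genes are uncertain. Dnajc19 has 1 annotated pseudogene of its name, which was not among the matches found at these limits. How reads shared with that pseudogene were treated is not given either.

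**Figure D1:**
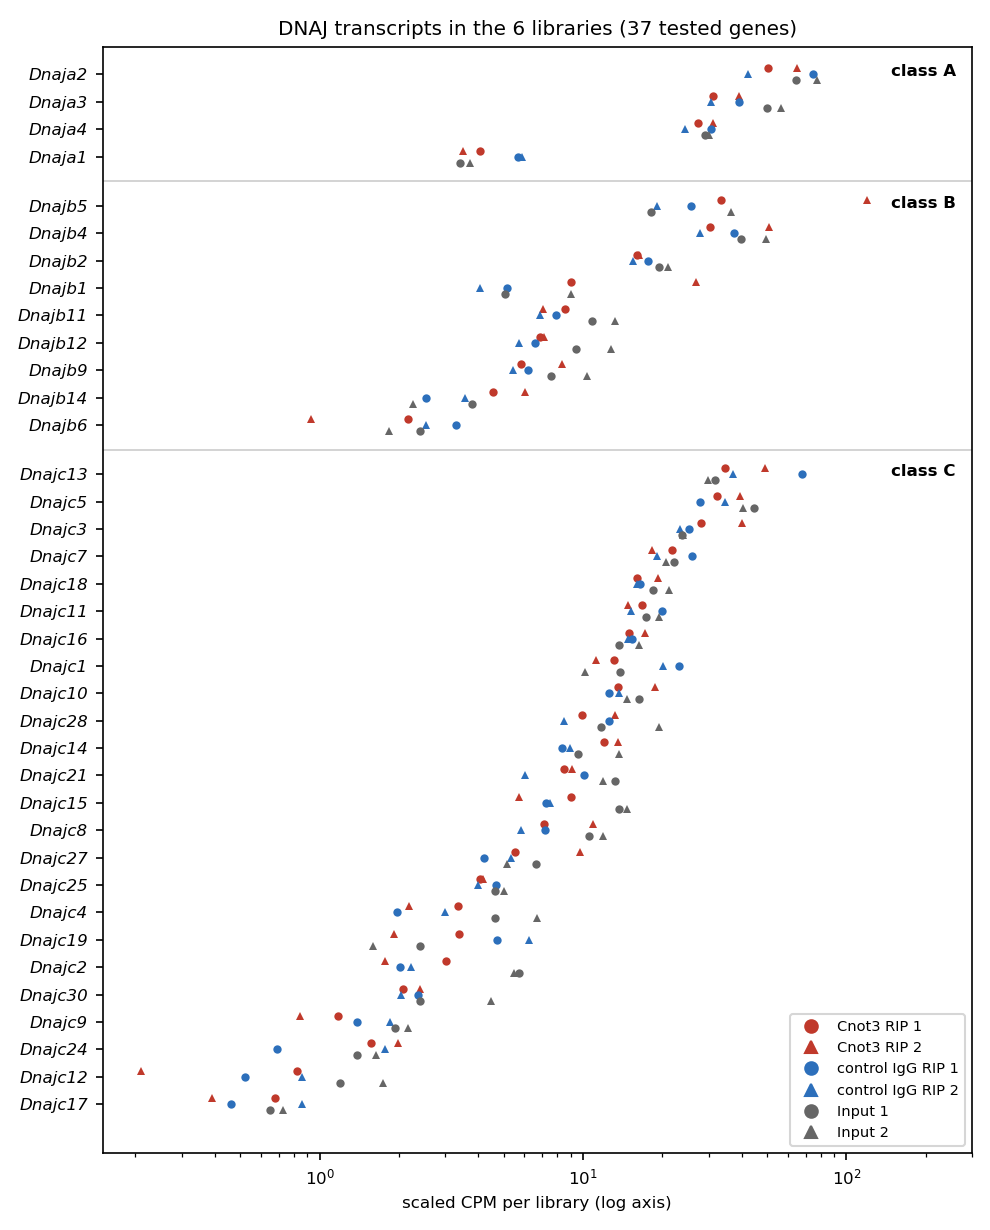
Scaled CPM (x axis, log scale) of the 37 tested DNAJ genes (y axis, grouped by class) in each library, with circles for replicate 1 and triangles for replicate 2. Cnot3 RIP replicate 2 stands far right of the 5 other libraries for Dnajb5 (119.9 scaled CPM) and Dnajb1 (27.0 scaled CPM), and both Input libraries stand right of the 4 RIP libraries for Dnajc2.

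Setting Cnot3 RIP beside control IgG RIP asks which mRNAs came down with Cnot3 in excess of those that a control antibody brings. No DNAJ gene passed the test: 0 of 37 were called higher and 0 of 37 lower by limma at an adjusted p under 0.05, where 1.54% of the 13010 genes tested were called higher and 0.277% lower. The unadjusted p was under 0.05 for 8 members, where 17.3% of all genes tested had such a p. The edgeR quasi-likelihood test on the recovered reads also called 0 members, where it called 242 genes higher and 54 lower. The values of both Cnot3 RIP libraries lay above both control IgG RIP libraries for 7 members, which is 4 of class B (Dnajb1, Dnajb5, Dnajb12 and Dnajb14) and 3 of class C (Dnajc3, Dnajc14 and Dnajc27), against a background of 24.0% of all genes tested. They lay below for 5 members, Dnaja1, Dnajb6, Dnajc1, Dnajc9 and Dnajc19, against a background of 21.8%. As shares of the 37 members, both counts were under these backgrounds. The median log2 fold change was 0.02 over the 4 class A genes, 0.26 over the 9 class B genes and 0.10 over the 24 class C genes, against −0.00 over all genes tested. These medians moved with single libraries: without control IgG RIP replicate 2 they were −0.27, 0.09 and 0.02.

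Dnajb1, the stress-inducible HSP40 of the cytosol (chromosome 8, 83608193 to 83612653, plus strand), had the largest difference of the family. Its level was 8.98 and 27.0 scaled CPM in Cnot3 RIP against 5.13 and 4.08 in control IgG RIP, with 5.08 and 9.03 in Input. Both Cnot3 RIP values were above both control IgG RIP values, but replicate 1 did not exceed the higher Input library and replicate 2 was far above replicate 1. Dnajb1 averaged 17.98 ± 12.7 scaled CPM in Cnot3 RIP against 4.61 ± 0.746 in control IgG RIP (SD, n = 2 each), a log2 fold change of 1.72 (SE 0.47) that did not pass the limma test (adjusted p = 0.106).

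Dnajb5, a class B protein that forms a complex with thioredoxin and the histone deacetylase HDAC4 in heart muscle cells (chromosome 4, 42949814 to 42959425, plus strand), had the same pattern. It stood at 33.6 and 119.9 scaled CPM in Cnot3 RIP against 25.7 and 19.2 in control IgG RIP, with 18.2 and 36.5 in Input. Again the Cnot3 RIP libraries were both above the control IgG RIP libraries and far apart from each other, with Input replicate 2 above Cnot3 RIP replicate 1. The log2 fold change of Dnajb5 in Cnot3 RIP over control IgG RIP was 1.50 (SE 0.53, limma adjusted p = 0.188). In recovered reads this was 942 and 4000 in Cnot3 RIP and 446 and 423 in control IgG RIP, so counting error was small beside the difference between the Cnot3 RIP libraries.

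The 2 Cnot3 RIP libraries decided both values. Scaled CPM plus 0.25 was 2.95 times as high in Cnot3 RIP replicate 2 as in replicate 1 for Dnajb1 and 3.56 times as high for Dnajb5, ratios reached by 0.976% and 0.515% of all genes tested, where the median ratio was 1.05. Without Cnot3 RIP replicate 1, Dnajb1 had a log2 fold change of 2.50 and Dnajb5 one of 2.43. Without Cnot3 RIP replicate 2 the log2 fold changes were 0.94 for Dnajb1 and 0.60 for Dnajb5. Such a fit assumes that the lone library varies like those of the other groups. Cnot3 RIP replicate 2 also has the lower endothelial, fibroblast and smooth muscle marker sums of its group, given above. The part of that in the values of Dnajb1 and Dnajb5 was not tested. Control IgG RIP replicate 1 and Input replicate 2 had the lower sums of their groups in the same marker lists.

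These 2 genes also set the class B total. The summed level of the 13 class B genes was 117 and 244 scaled CPM in Cnot3 RIP against 113 and 91.6 in control IgG RIP, with 117 and 157 in Input. With Dnajb1 and Dnajb5 left out, a choice made after their values were seen, the sums were 74.5 and 96.9 in Cnot3 RIP against 82.0 and 68.4 in control IgG RIP, with 93.6 and 111 in Input. The groups of RIP libraries then overlapped. Class A sums were 113 and 139 in Cnot3 RIP against 150 and 103 in control IgG RIP, with 147 and 168 in Input. Class C sums were 264 and 306, 303 and 259, and 292 and 303 in the same order. Neither class A nor class C therefore separated the 2 kinds of RIP in its total.

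**Figure D2:**
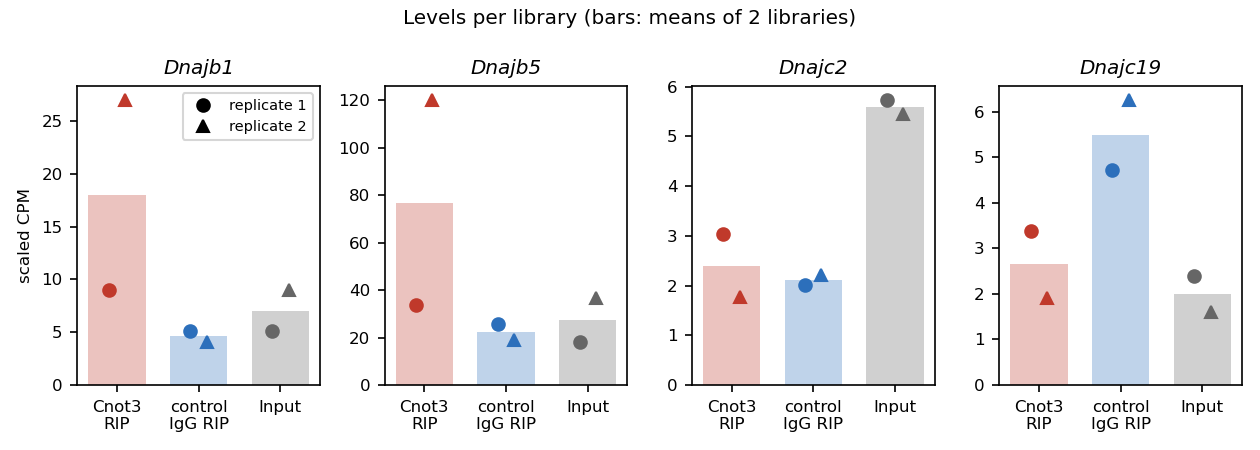
Scaled CPM (y axes, starting at 0) of Dnajb1, Dnajb5, Dnajc2 and Dnajc19 in Cnot3 RIP, control IgG RIP and Input, with a point per library and a bar at the mean of 2 libraries. Dnajb1 and Dnajb5 are high in Cnot3 RIP replicate 2 (27.0 and 119.9 scaled CPM), Dnajc2 is highest in both Input libraries, and Dnajc19 is highest in both control IgG RIP libraries.

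The rest of class B differed less between the immunoprecipitates. Dnajb4, a cytosolic partner close to Dnajb1 in structure, had 30.2 and 50.8 scaled CPM in Cnot3 RIP against 37.4 and 27.9 in control IgG RIP, with 39.9 and 49.6 in Input, and the groups overlapped (log2 fold change in Cnot3 RIP over control IgG RIP 0.28, SE 0.29). Dnajb2 had 16.0 and 16.3 in Cnot3 RIP against 17.7 and 15.5 in control IgG RIP, with 19.5 and 21.0 in Input, so the 2 kinds of RIP overlapped and both Input libraries were above them. Dnajb6, which keeps aggregation-prone proteins soluble and is mutated in a limb-girdle muscular dystrophy, had 2.17 and 0.929 scaled CPM in Cnot3 RIP against 3.29 and 2.54 in control IgG RIP, with 2.40 and 1.83 in Input. Its log2 fold change of −0.89 did not pass (SE 0.38, limma adjusted p = 0.264), and its reads were only 61 and 31 in Cnot3 RIP against 57 and 56 in control IgG RIP, besides the pseudogene copies. The log2 fold change of Dnajb6 was −1.39 when Cnot3 RIP replicate 1 was left out and −0.37 when replicate 2 was.

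In class A the 2 kinds of RIP overlapped for 3 of 4 genes. Dnaja2 stood at 50.5 and 65.0 scaled CPM in Cnot3 RIP against 75.0 and 42.2 in control IgG RIP, with 64.3 and 77.6 in Input, with a log2 fold change of 0.03 in Cnot3 RIP over control IgG RIP (SE 0.30) whose sign turned under several settings. Dnaja3 stood at 31.2 and 39.1 in Cnot3 RIP against 39.2 and 30.6 in control IgG RIP, with 50.1 and 56.6 in Input, and Dnaja4 at 27.5 and 31.2, 30.6 and 24.4, and 29.0 and 30.1. With SEs of 0.22 to 0.30 for these 3 genes, differences of that order were not detectable here. Dnaja1 was the exception, with 4.06 and 3.51 scaled CPM in Cnot3 RIP against 5.65 and 5.89 in control IgG RIP, with 3.42 and 3.72 in Input. Both control IgG RIP libraries of Dnaja1 were above the 4 others, but the log2 fold change of −0.58 (SE 0.24) in Cnot3 RIP over control IgG RIP did not pass the limma test (adjusted p = 0.253), and its pseudogene copies make the value uncertain.

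The class C genes ranged from −1.02 to 0.60 in log2 fold change of Cnot3 RIP over control IgG RIP. Dnajc19, whose product drives the HSP70 of the mitochondrial import motor and whose loss causes a dilated cardiomyopathy in humans (chromosome 3, 34056020 to 34081321, minus strand), was at the low end. Its level was 3.38 and 1.92 scaled CPM in Cnot3 RIP against 4.73 and 6.25 in control IgG RIP, with 2.40 and 1.59 in Input. The control IgG RIP libraries were the 2 highest of the 6, while Cnot3 RIP and Input overlapped. The log2 fold change of −1.02 (SE 0.34) in Cnot3 RIP over control IgG RIP did not pass (limma adjusted p = 0.160), and without Cnot3 RIP replicate 1 it was −1.37. With replicate 2 left out instead, the value was −0.64.

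Dnajc1, a J protein of the endoplasmic reticulum membrane that binds ribosomes, was high in the same libraries. It had 13.1 and 11.2 scaled CPM in Cnot3 RIP against 23.2 and 20.2 in control IgG RIP, with 13.9 and 10.1 in Input, a log2 fold change of −0.83 in Cnot3 RIP over control IgG RIP (SE 0.24, limma adjusted p = 0.122). At the other end stood Dnajc27, a J domain joined to a small GTPase, with 5.52 and 9.74 in Cnot3 RIP against 4.21 and 5.35 in control IgG RIP, with 6.65 and 5.17 in Input (log2 fold change 0.60, SE 0.31). Its Cnot3 RIP values were above those of control IgG RIP by a margin that is small beside their own spread, and they overlapped Input. Leaving out Cnot3 RIP replicate 1 gave 1.01 and leaving out replicate 2 gave 0.21, and neither passed.

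The class C genes of highest level per kilobase showed small differences between the immunoprecipitates. Dnajc3 had 28.0 and 40.2 scaled CPM in Cnot3 RIP against 25.4 and 23.4 in control IgG RIP, with 23.7 and 23.9 in Input, and its Cnot3 RIP libraries were above the 4 others (log2 fold change over control IgG RIP 0.46, SE 0.24, limma adjusted p = 0.373). Dnajc5 had 32.2 and 39.3 in Cnot3 RIP against 27.7 and 34.6 in control IgG RIP, with 44.5 and 40.4 in Input. Dnajc7 had 21.8 and 18.3 in Cnot3 RIP against 26.0 and 19.0 in control IgG RIP, with 22.2 and 20.7 in Input. The groups of RIP libraries overlapped for Dnajc5 and Dnajc7.

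**Figure D3:**
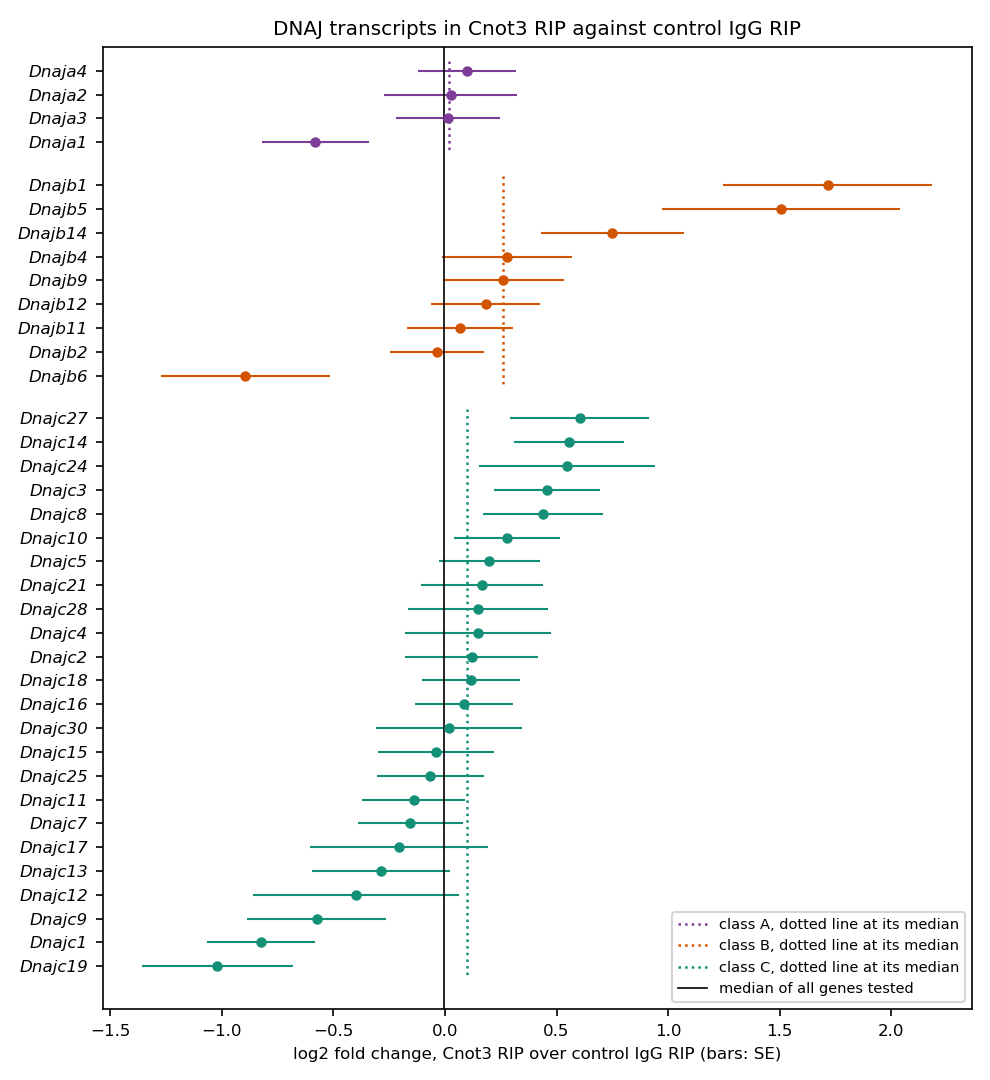
Log2 fold change of Cnot3 RIP over control IgG RIP (x axis, bars for the SE) of the 37 tested DNAJ genes (y axis), by class, with dotted lines at the class medians and a solid line at the median of all genes tested. Dnajb1 (1.72) and Dnajb5 (1.50) stand to the right of all other members and Dnajc19 (−1.02) is farthest left, while the class medians of 0.02, 0.26 and 0.10 lie near 0.

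A grouping by the compartment in which the proteins work gave no group with a gene called. It was made after the values were seen and covers only part of the family. A group of 10 endoplasmic reticulum genes (Dnajb9, Dnajb11, Dnajb12, Dnajb14, Dnajc1, Dnajc3, Dnajc10, Dnajc16, Dnajc18 and Dnajc25) had log2 fold changes of Cnot3 RIP over control IgG RIP from −0.83 to 0.75, with a median of 0.15, and 0 were called. Of these, 8 of 10 were above 0, where 6461 of the 13010 genes tested were. A group of 5 mitochondrial genes (Dnaja3, Dnajc11, Dnajc15, Dnajc19 and Dnajc30) ran from −1.02 to 0.02, with a median of −0.04, and 0 were called. The 2 tested genes of vesicles and endosomes, Dnajc5 and the endosomal sorting protein Dnajc13, had 0.20 and −0.29.

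The comparisons of the immunoprecipitates with Input ask how the RNA recovered by each antibody differed from that of the lysate. They share the Input libraries, so their values are given side by side and not counted as separate evidence. By limma, 0 of 37 members were called higher and 1 lower in Cnot3 RIP against Input, where 5.86% of the genes tested were called higher and 2.47% lower. In control IgG RIP against Input it was again 0 higher and 1 lower, where 2.58% were called higher and 1.49% lower. The members with an unadjusted p under 0.05 numbered 11 in Cnot3 RIP against Input, where 27.2% of all genes tested had such a p, and 12 in control IgG RIP against Input, where 24.9% did. Both Cnot3 RIP libraries were above both Input libraries for 3 members, against a background of 30.6%, and below for 14, against 26.9%. Both control IgG RIP libraries were above Input for 5 members, against 29.7%, and below for 18, against 29.3%. As shares of the 37 members, the counts above Input were under these backgrounds and the counts below Input were over them.

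The member called was Dnajc2 in both comparisons (chromosome 5, 21757267 to 21785251, minus strand). Dnajc2 is the J protein of the ribosome-associated complex, which works on chains as they leave the ribosome. Its level was 3.03 and 1.77 scaled CPM in Cnot3 RIP against 2.02 and 2.22 in control IgG RIP, with 5.73 and 5.46 in Input. All 4 RIP values lay below both Input values, and the 2 kinds of RIP overlapped. Dnajc2 was lower in Cnot3 RIP than in Input (log2 fold change −1.18, SE 0.30, limma adjusted p = 0.0424) and lower in control IgG RIP than in Input (−1.30, SE 0.30, limma adjusted p = 0.0469), at 0.440 and 0.405 of the Input level on that scale.

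These calls are close to the threshold. The recovered reads of Dnajc2 were 85 and 59 in Cnot3 RIP against 35 and 49 in control IgG RIP, with 62 and 113 in Input. Against Input, the Cnot3 RIP call was lost without Cnot3 RIP replicate 2 (log2 fold change −0.83, limma adjusted p = 0.193), without Input replicate 1 (−1.20) or 2 (−1.27), and without control IgG RIP replicate 1 (−1.23) or 2 (−1.18). It passed at −1.52 without Cnot3 RIP replicate 1. The control IgG RIP call was lost without Input replicate 1 (−1.30) or 2 (−1.36) and without control IgG RIP replicate 1 (−1.26) or 2 (−1.36). With library size as the only scaling, the log2 fold changes of Dnajc2 were −0.17 and −0.59 and neither passed, while the median of all genes was then 1.02 in Cnot3 RIP against Input and 0.70 in control IgG RIP against Input.

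Dnajc15, which like Dnajc19 is a partner of HSP70 at the mitochondrial import channel, had the next smallest adjusted p in Cnot3 RIP against Input. It stood at 8.98 and 5.73 scaled CPM in Cnot3 RIP against 7.27 and 7.52 in control IgG RIP, with 13.8 and 14.7 in Input. As for Dnajc2, all 4 RIP values were below both Input values, but the log2 fold changes of −0.96 in Cnot3 RIP over Input (SE 0.26, limma adjusted p = 0.0528) and −0.92 in control IgG RIP over Input (SE 0.26, limma adjusted p = 0.0793) did not pass. They were −1.27 and −0.93 when Cnot3 RIP replicate 1 was left out. With Cnot3 RIP replicate 2 left out, the Cnot3 RIP value was −0.65 and the control IgG RIP value −0.92. Dnajc19 had the opposite sign, with 1.36 in control IgG RIP over Input (SE 0.34, limma adjusted p = 0.0565) and 0.34 in Cnot3 RIP over Input (SE 0.34). Its control IgG RIP value was 1.35 when either Cnot3 RIP library was left out. The 2 import partners therefore had values on opposite sides of Input in control IgG RIP, neither of which passed with all 6 libraries. Dnajb1 and Dnajb5 had log2 fold changes of 1.17 (SE 0.47) and 1.29 (SE 0.53) in Cnot3 RIP over Input and −0.54 and −0.21 in control IgG RIP over Input, and none passed. Without Cnot3 RIP replicate 1 they were 1.96 and 2.21 in Cnot3 RIP over Input, and without Cnot3 RIP replicate 2 they were 0.39 and 0.38. Leaving out Input replicate 1 gave 0.72 and 0.74.

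The class medians lay below that of all genes against Input. In Cnot3 RIP over Input the median log2 fold change was −0.16 in class A, −0.32 in class B and −0.22 in class C, against 0.06 over all genes tested. In control IgG RIP over Input it was −0.22, −0.46 and −0.30, against 0.01 over all genes. With library size as the only scaling the signs turned, to 0.92, 0.75 and 0.84 in Cnot3 RIP over Input and 0.54, 0.30 and 0.40 in control IgG RIP over Input, but each class median stayed below that of all genes. In control IgG RIP over Input without control IgG RIP replicate 2, the class A median was 0.07 and lay above that of all genes, −0.01.

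The differences from Input varied with annotated exon length in the family to about the degree seen across all genes. Spearman's rho between annotated exon bases and the log2 fold change was 0.41 over the 37 members and 0.40 over 12514 genes with a length in Cnot3 RIP over Input, and 0.45 and 0.42 in control IgG RIP over Input. For Cnot3 RIP over control IgG RIP it was −0.05 over the members and 0.04 over all genes. These are correlations across genes of the same libraries, which are not independent replicates, and both Input comparisons share the Input libraries. Dnajc4, with 1240 annotated exon bases, had log2 fold changes of −0.97 in Cnot3 RIP over Input and −1.12 in control IgG RIP over Input. The endosomal gene Dnajc13, with 11938 bases, had 0.41 and 0.70. Members of similar length to these could lie elsewhere. Dnajc24, with 1369 bases, had 0.19 and −0.35, and Dnajc11, with 10678 bases, had −0.22 and −0.08, in the same order. Dnajc2 has 5029 annotated exon bases with all its transcripts merged, and the members' median was 4777. The single Dnajc2 transcript used for the motif has 2133 bases. The part of length in the Dnajc2 value was not tested.

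**Figure D4:**
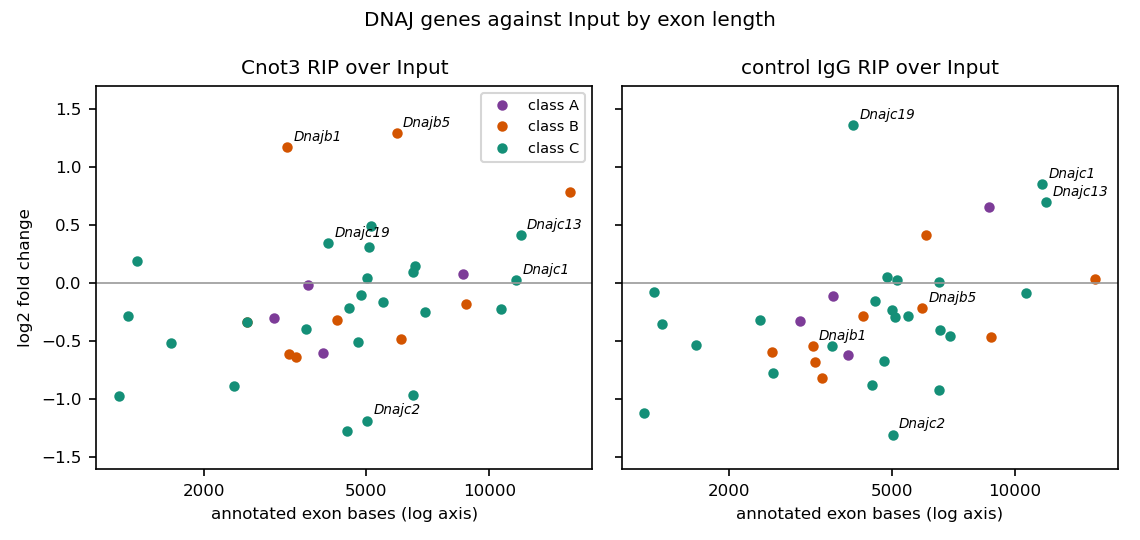
Log2 fold change over Input (y axis) of the 37 tested DNAJ genes against their annotated exon bases (x axis, log scale), for Cnot3 RIP on the left and control IgG RIP on the right, coloured by class. Longer genes tend to lie higher in both panels (Spearman's rho 0.41 and 0.45), Dnajc2 lies low in both, and Dnajb1 and Dnajb5 lie high in the Cnot3 RIP panel.

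The partners of the DNAJ proteins were examined as 7 lists with 62 listed genes, 59 of them tested. In Cnot3 RIP against control IgG RIP, 0 of the 59 were called in either direction. The median log2 fold change there was −0.00 over the 13 tested HSP70 genes, 0.04 over the 13 nucleotide exchange and co-factor genes, −0.00 over the 10 HSP90 and co-factor genes and −0.06 over the 10 chaperonin genes. The 4 tested J domain genes under other names had 0.12, the 2 tested heat shock factors −0.05 and the 7 small heat shock proteins 0.00. Against Input, the 7 small heat shock proteins, which hold unfolded proteins without ATP, had medians of −0.93 in Cnot3 RIP, with 4 of 7 called lower, and −0.96 in control IgG RIP, with 3 of 7 called lower. Of all genes tested, 2.47% and 1.49% were called lower there. The control IgG RIP calls, Hspb6, Hspb7 and Hspb8, did not hold in every fit without 1 library. Their values there ran from −1.53 to −1.09, −1.53 to −0.89 and −1.28 to −0.90. Hspb6 was lower in Cnot3 RIP than in Input by a log2 fold change of −1.29 (limma adjusted p = 0.0168), and its level was 94.7 and 92.9 scaled CPM in Cnot3 RIP against 97.1 and 90.1 in control IgG RIP, with 198 and 267 in Input. Cryab (−1.05), Hspb7 (−1.08) and Hspb8 (−0.93) were lower than Input in Cnot3 RIP too, but with library size as the only scaling Cryab and Hspb8 had values of 0.04 and 0.15 and none of the 4 passed. With the replicate number as a block, Cryab, Hspb7 and Hspb8 also lost the call (limma adjusted p = 0.0841, 0.0859 and 0.0864). Hspb6 (−1.12), Cryab (−0.81), Hspb7 (−0.81) and Hspb8 (−0.83) did not pass without Input replicate 2 either, and all 4 also lost the call without Input replicate 1 or without Cnot3 RIP replicate 2. Hspb7 lost it whichever library was left out.

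One further partner was called against Input. Bag1, a nucleotide exchange factor that opens HSP70 again after the J protein has closed it, had 11.7 and 8.45 scaled CPM in Cnot3 RIP against 10.9 and 10.8 in control IgG RIP, with 32.0 and 33.6 in Input. It was lower than Input by a log2 fold change of −1.70 in Cnot3 RIP (SE 0.23, limma adjusted p = 0.00972) and −1.58 in control IgG RIP (SE 0.23, limma adjusted p = 0.0129). Without Input replicate 1 or 2 the Cnot3 RIP value of Bag1 was −1.78 or −1.71 and did not pass, nor did the control IgG RIP value without 1 Input or 1 control IgG RIP library (−1.56 to −1.63) or either value with library size as the only scaling (−0.63 and −0.82). In the HSP70, HSP90, chaperonin and heat shock factor lists and among the J domain genes under other names, 0 genes were called against Input in either kind of RIP.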

How the data were processed

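The authors deposited 1 table of CPM per gene symbol, each column scaled to a common library total, for 2 libraries of every kind (Cnot3 RIP, control IgG RIP, Input). Per the submitters' processing notes, mm10 was the build, and the named tools were edgeR, TopHat2 2.1.0, Bowtie2 2.2.5, CASAVA 1.8 and FastQC. Read counter, annotation and strand setting: not given in the sources used here. The CPM steps gave back whole reads for 100% of values within 0.01 read.

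From these, CPM were divided by TMM factors (edgeR 4.0.16). A pseudocount of 0.25 was added, and the log2 values went into limma 3.58.1 (R 4.3.3, empirical Bayes with a trend) as 1 fit of all 6 libraries with 3 group means, with 3 residual and 6.24 prior degrees of freedom. filterByExpr at a minimum count of 10 kept 13010 of 24421 genes, over which p-values were Benjamini-Hochberg adjusted and calls made at 0.05. Fold changes on this scale understate those of low genes. An exact permutation test of 2 libraries against 2 cannot go under 0.333, so single genes have the limma p alone. The edgeR quasi-likelihood test on recovered reads and DESeq2 1.42.0 size factors were alternatives. The fit was run on simulated counts with fold changes above those of the members and no differences between libraries but depth. That run does not bear on whether smaller changes can be detected here.

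The members, lists and tests were chosen with earlier results of these data known. Members named with values are those called, the 3 per class of highest level per kilobase and the 3 per class of largest log2 fold change in Cnot3 RIP over control IgG RIP, and up to 4 called genes of each partner list. Dnajc15, Dnajc4, Dnajc13, Dnajc24 and Dnajc11 were added after their values were seen. Genes listed by compartment or counted as not overlapping are named in full. Floors cover counting error only: without molecular identifiers, reads need not be separate molecules.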

Additional observations from a re-analysis of the deposited data

How the results depend on the processing

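The count of DNAJ genes called moved with several settings. In Cnot3 RIP against control IgG RIP, library size as the only scaling gave 1 higher (Dnajb1) in place of 0. Of the 13010 genes tested, 592 were then called higher. In Cnot3 RIP against Input it gave 22 higher and 0 lower, where 7752 of the 13010 genes were called higher and 7 lower. In control IgG RIP against Input it gave 7 higher and 0 lower, where 4383 genes were called higher and 10 lower. That scaling moved the median over all genes to 0.30, 1.02 and 0.70 (log2) in the 3 comparisons. In Cnot3 RIP against Input, 2 were lower with DESeq2 size factors and with a filter at a mean of 1 CPM. Of all genes, 372 of 13010 and 384 of 11424 were called lower there. It was 0 lower with CPM recomputed without Rn45s, with no filter on low values, and in a fit of the 2 groups alone. Under these settings 183 of 13010, 137 of 18620 and 324 of 13010 genes were called lower. In control IgG RIP against Input, 0 were lower with CPM recomputed without Rn45s, with no filter and in edgeR's quasi-likelihood test. Of all genes, 116 of 13010, 104 of 18620 and 119 of 13010 were called lower there. A fit of the 2 groups alone gave 1 higher and 2 lower, where 571 of the 13010 genes were called higher and 407 lower. Calls in all 3 comparisons also moved when 1 library at a time was left out. Among single genes in Cnot3 RIP against control IgG RIP, Dnaja2 turned to −0.0052 with DESeq2 size factors, −0.012 in the fit of the 2 groups alone, −0.020 in the quasi-likelihood test and values between −0.385 and 0.408 without 1 library, and Dnaja4 ran from −0.064 to 0.23 without 1 library. With library size as the only scaling in Cnot3 RIP against Input, Dnajc15 was 0.094, Cryab 0.035 and Hspb8 0.15.

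Whether the replicate numbers pair the libraries is not stated in the labels, and the data did not settle it: deviations from the group means correlated at −0.317 between Cnot3 RIP and control IgG RIP, 0.339 between Cnot3 RIP and Input and −0.327 between control IgG RIP and Input over 13010 genes. With the replicate block, 0 members were called higher and 0 lower in all 3 comparisons, so the Dnajc2 calls were lost (limma adjusted p = 0.0558 for Cnot3 RIP and 0.0634 for control IgG RIP, each against Input). Over all 13010 genes the block called 292 higher and 93 lower for Cnot3 RIP against control IgG RIP. It called 643 and 166 in Cnot3 RIP against Input, and 248 and 77 in control IgG RIP against Input. A crossed pairing with the control IgG RIP numbers swapped, chosen after seeing the data, called 2 higher and 2 lower for Cnot3 RIP against control IgG RIP and 2 higher and 5 lower in each Input comparison. Over all 13010 genes that pairing called 760 higher and 305 lower for Cnot3 RIP against control IgG RIP. The numbers were 1576 and 922 in Cnot3 RIP against Input, and 1050 and 820 in control IgG RIP against Input. Other values for single genes kept their side of the threshold in 308 cases, lost it in 78 and gained it in 28. The causes of these shifts, the scaling apart, were not tested. Depth limits Dnajb6, Dnajc9, Dnajc12, Dnajc17, Dnajc24 and Dnajc30, which had under 100 reads in every library.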
